A study of Mus musculus with 5 samples.

Results

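Interferon response genes are the genes that cells switch on when an interferon binds its receptor, together with the transcription factors that carry the signal. Described here are 36 of them chosen by name, out of 32793 genes in the deposited tables: 8 transcription factors, 3 RNA sensors and 25 antiviral effectors and modifiers. All 36 had a row in both tables. They were compared between kidneys of mouse embryos at embryonic day 15.5 that carried Six2TGC/+ with RosaN1ICD∆PEST (NICD_mut, 2 libraries) and kidneys that carried RosaN1ICD∆PEST without Cre (NICD_wt, 3 libraries). Six2TGC makes Cre under control of the Six2 locus, in nephron progenitors, and Cre there turns on an activated Notch1 that lacks its PEST domain. Both groups carried the Rosa allele, so activated Notch1 and the Cre driver differed together and cannot be told apart. Whether the libraries came from separate animals is not in the labels; every p-value below rests on the spread between these libraries, which may be partly technical.

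Type I and type III interferons act through receptors coupled to the kinases Jak1 and Tyk2, which phosphorylate Stat2. With Irf9, Stat2 takes part in a complex that binds the interferon-stimulated response element (ISRE) in the promoters of its targets. Type II interferon acts through another element, the gamma-activated site (GAS), for example in the promoter of Irf1. Many of these genes are also transcribed at a basal level without interferon, and immune and endothelial cells often express them more than epithelium does.

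The 5 libraries held 17361823 to 21356447 counts. Notch1 was at 288 and 324 CPM (the count scaled to library size with TMM factors) in NICD_mut and 120 to 142 CPM in NICD_wt, and Six2, the progenitor factor, was at 0.296 to 0.328 CPM against 134 to 141 CPM, so both genes separated the groups as labelled. Kidney markers were present: 8 proximal tubule genes summed to 1480 and 1650 CPM in NICD_mut and 643 to 798 CPM in NICD_wt, and 8 nephron progenitor genes to 211 and 179 CPM against 728 to 733 CPM. Stroma markers summed to 11500 and 5700 CPM in NICD_mut and 2820 to 3620 CPM in NICD_wt. Of the 8, 5 were called higher, as were 23.0% of all tested genes. NICD_mut 1 stood apart by its skeletal muscle transcripts, at 3230 CPM over 8 genes, against 14.6 CPM in NICD_mut 2 and 4.78 to 137 CPM in NICD_wt.

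Interferon signals act through sites in promoters, and stretches of 7 member promoters are shown because their genes fell on different sides here: some rose, 1 did not pass the test and some were too low to test. RefSeq promoters (GRCm38.p6, the sequence of mm10, from 250 bases before to 50 after the start of transcription) were matched for 27 of 36 members. Capitals mark the letters searched, GAAA and GAAA with any pair of bases between them (the ISRE core, on either strand, overlapping matches allowed). In Irf1 they mark TTCNNNGAA, the palindromic GAS core. The Irf1 stretch was added after the matches were seen. Each line runs 5′ to 3′ on the strand of the gene, with up to 30 bases on each side of the matches. It ends before the start of transcription of that promoter entry. For Ifit3 and Gbp3 the RefSeq gene span begins further upstream, at 34583119 and 142560016, so their stretches lie wholly or partly within it.
Ifit1, chr19:34640755-34640843, plus strand: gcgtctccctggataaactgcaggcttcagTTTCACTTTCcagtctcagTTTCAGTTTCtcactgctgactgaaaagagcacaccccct
Ifit3, chr19:34583343-34583446, plus strand: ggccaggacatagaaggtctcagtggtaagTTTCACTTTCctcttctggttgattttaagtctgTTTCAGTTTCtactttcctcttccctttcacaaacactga
Isg15, chr4:156200845-156200926, minus strand: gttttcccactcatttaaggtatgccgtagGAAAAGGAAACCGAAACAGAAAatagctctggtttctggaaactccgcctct
Rsad2, chr12:26456533-26456602, minus strand: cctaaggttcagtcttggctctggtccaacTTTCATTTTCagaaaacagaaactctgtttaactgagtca
Gbp2, chr3:142620574-142620643, plus strand: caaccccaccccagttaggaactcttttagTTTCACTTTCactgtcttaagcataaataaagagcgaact
Gbp3, chr3:142559969-142560043, plus strand: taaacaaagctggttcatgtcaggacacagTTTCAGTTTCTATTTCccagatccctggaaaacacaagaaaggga
Irf1, chr11:53769894-53769962, plus strand: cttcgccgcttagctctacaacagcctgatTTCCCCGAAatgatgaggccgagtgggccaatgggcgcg

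The ISRE letters were found in 13 of the 27 members with a promoter, and in 1131 of all 32851 promoters (3.44%), or 1079 of 27025 genes (3.99%) counted per gene as the members are. The GAS letters were found in 8 of the 27, in 8.30% of all promoters and in 9.55% of genes. Of these 8 members Irf1 alone is printed for its GAS, and Ifit2, which fell, also held a GAS match. Ifit1 and Ifit3 each held a pair of separate ISRE matches and Isg15 held 3 overlapping ones. The matches are descriptions of letters and not shown to be bound in these kidneys.

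Interferon response genes were mostly higher in NICD_mut kidneys, by modest amounts. Of 31 members that passed the filter on low counts, 20 rose, 1 fell and 10 did not pass the test (Benjamini-Hochberg adjusted p under 0.05 in the quasi-likelihood test of edgeR). Over all 15885 genes tested, 47.7% passed, 23.0% higher and 24.8% lower. The median log2 fold change of the tested members was 0.81, against 0.01 over all tested genes. At least a 2-fold rise was called for 11 members, and for 7.93% of all tested genes. The 2 NICD_mut libraries lay above all 3 NICD_wt libraries in 27 of the 31 members and below them in 1, against 32.9% and 34.2% of all tested genes. Among the 27, Oas1a was apart only past the printed digits, at 1.03 CPM in both NICD_mut 1 and NICD_wt 2. Of all genes that passed, 48.1% were higher in NICD_mut; by limma on log2(TPM + 1) it was 60.6%, where the median of all genes was 0.11 and 21 of 29 members tested rose with a median of 0.72. Summed over the 36 members, the level was 402 and 422 CPM in NICD_mut and 258 to 285 CPM in NICD_wt.

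**Figure D1:**
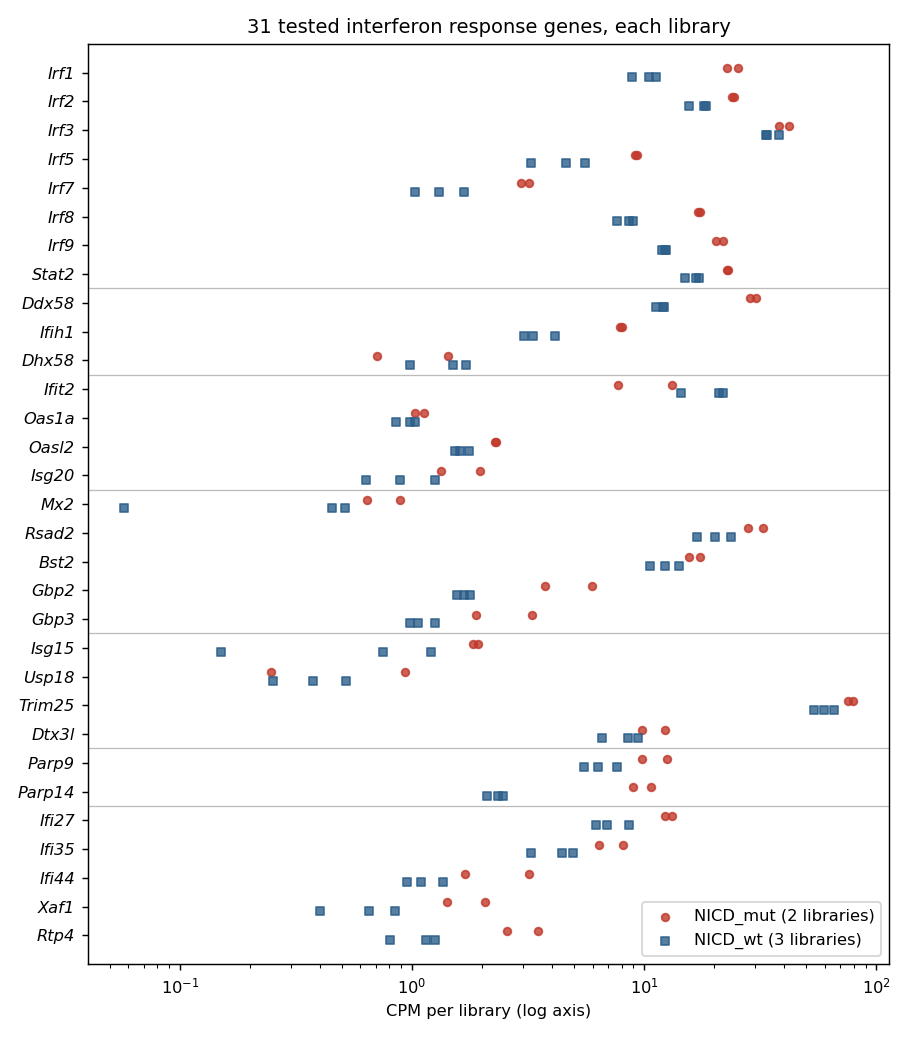
CPM of each of the 31 tested interferon response genes in each library on a log axis, NICD_mut as circles and NICD_wt as squares, with lines between roles. In 27 genes both circles lie to the right of all 3 squares, and in Ifit2 both lie to the left. For Oas1a, among the 27, NICD_mut 1 and NICD_wt 2 both print as 1.03 CPM.

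The other 5 members, Ifit1, Ifit3, Oas2, Oas3 and Mx1, had too few counts to test. Of the 31 tested, Mx2 and Usp18 reached the filter line of 0.491 CPM in fewer than 2 NICD_wt libraries, and neither passed the test. Of the 20 that rose, 10 stayed past the threshold under all 16 alternatives tried: Irf1, Irf5, Irf8, Irf9, Stat2, Ddx58, Ifih1, Gbp2, Parp14 and Ifi27.

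Of 8 transcription factors, 7 rose and 1 did not pass, where 23.0% of all tested genes were higher. Their median log2 fold change was 0.91. They summed to 158 and 165 CPM in NICD_mut and 103 to 110 CPM in NICD_wt. Irf1, an activator known to be induced through a GAS, had 22.7 and 25.5 CPM in NICD_mut, against 10.5, 8.89 and 11.3 CPM in NICD_wt. The groups were apart, and the log2 fold change was 1.24 (SE 0.14; edgeR quasi-likelihood test, adjusted p = 0.000145). Irf2, which competes with Irf1 for the same sites, changed less, at 24.5 and 23.9 CPM against 18.5, 18.1 and 15.7 CPM (0.47, SE 0.12). Irf9, the DNA-binding part of the complex with Stat2, had 20.4 and 21.8 CPM in NICD_mut, against 12.4, 12.3 and 11.9 CPM in NICD_wt. Its log2 fold change was 0.79 (SE 0.12). Its partner Stat2 had 22.7 and 23.0 CPM in NICD_mut, against 15, 16.7 and 17.3 CPM in NICD_wt (0.48, SE 0.12). So Irf9 and Stat2 were both higher in each NICD_mut library than in any NICD_wt library, as were 32.9% of all tested genes.

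Irf7, the factor that amplifies type I interferon production and is itself interferon-induced, had 3.19 and 2.96 CPM in NICD_mut, against 1.31, 1.03 and 1.67 CPM in NICD_wt. Its log2 fold change was 1.21 (SE 0.35), and it did not pass without NICD_mut 1 (1.15), NICD_wt 1 (1.19) or NICD_wt 2 (1.05). Irf3, the constitutive factor that sensors activate by phosphorylation, had 38.0 and 42.0 CPM in NICD_mut, against 38.3, 33.6 and 33.9 CPM in NICD_wt. These groups overlapped and Irf3 did not pass (0.18, SE 0.10; edgeR quasi-likelihood test, adjusted p = 0.148). It did pass by limma on log2(TPM + 1), at 0.30, and in the other fits to TPM.

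Irf5 and Irf8 are factors of macrophages and dendritic cells. Irf8 had 17.5 and 17.0 CPM in NICD_mut, against 8.61, 8.98 and 7.65 CPM in NICD_wt (log2 fold change 1.04, SE 0.14). Irf5 had 9.15 and 9.37 CPM in NICD_mut, against 5.59, 3.27 and 4.6 CPM in NICD_wt (log2 fold change 1.05, SE 0.24). Both were about 2-fold higher with no overlap, and 32.9% of all tested genes lay apart in that direction. RefSeq places 1043 bases of Irf5 within the span of Tnpo3, which did not pass (-0.14), and the strand setting of the counting is not given in the sources used here.

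Most macrophage markers moved with these factors. Of 18 macrophage and leukocyte markers, all tested, 14 rose and 4 did not pass, where 23.0% of all tested genes were higher. The median of the markers was 1.23. Their sum was 344 and 324 CPM in NICD_mut and 135 to 158 CPM in NICD_wt, and no marker was at 0. Csf1r, the receptor for the macrophage growth factor, had 66.3 and 66.7 CPM in NICD_mut, against 18.4 to 22.1 CPM in NICD_wt (1.69, SE 0.10), and Laptm5, a lysosomal protein of leukocytes, rose by 1.15 (SE 0.11). Ptprc, carried by all leukocytes, did not follow, at 6.47 and 5.77 CPM against 6.5 to 9.12 CPM (-0.38, SE 0.21; adjusted p = 0.161 by the edgeR quasi-likelihood test). The other markers that did not pass were Aif1 (1.095), Lyz2 (0.28) and Itgam (0.02). All 12 endothelial markers rose, where 23.0% of all tested genes were higher. They had a median of 0.68 and a sum of 1690 and 2170 CPM against 977 to 1060 CPM. None of them was at 0. Pecam1 and Cdh5, both junction proteins of endothelium, rose by 0.55 (SE 0.07) and 0.84 (SE 0.07) log2, and Kdr, the main VEGF receptor, by 0.98 (SE 0.08). Of 10 lymphoid and plasmacytoid dendritic cell markers only Cd4 was tested. Its NICD_wt levels, 0.0468 to 0.345 CPM, were under the filter line of 0.491 CPM. Cd4 thus entered the test through NICD_mut alone, and its call cannot stand as support for a rise. It was called higher (2.02, SE 0.74; edgeR quasi-likelihood test, adjusted p = 0.0465), but not with no filter, by the DESeq2 Wald test or without any 1 of the 5 libraries. The 10 markers summed to 2.53 and 1.97 CPM in NICD_mut and 0.795 to 1.31 CPM in NICD_wt, and Cd3e and Ms4a1 had no count in any library. The part of these cells in the changes of the interferon response genes was not tested, and in whole kidneys more cells of a type and more RNA per cell cannot be told apart.

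Of the 3 cytosolic RNA sensors, Ddx58 and Ifih1 rose and 1 did not pass, where 23.0% of all tested genes were higher. The 3 sensors summed to 37.2 and 39.7 CPM in NICD_mut and 16.2 to 17.1 CPM in NICD_wt. Ddx58, which encodes RIG-I, had 28.5 and 30.3 CPM in NICD_mut, against 12.1, 12.2 and 11.3 CPM in NICD_wt. The log2 fold change was 1.31 (SE 0.11; edgeR quasi-likelihood test, adjusted p = 3.01e-05), the smallest adjusted p among the members. Ifih1, which encodes MDA5, had 8.02 and 7.89 CPM in NICD_mut, against 3.32, 3.04 and 4.14 CPM in NICD_wt (1.19, SE 0.22). Dhx58 encodes LGP2 and lacks the signalling domains of the other sensors. It did not pass, at 0.704 and 1.43 CPM in NICD_mut, against 1.71, 0.982 and 1.5 CPM in NICD_wt (-0.39, SE 0.49). The groups overlapped, NICD_mut 1 was at 0.492 times the level of NICD_mut 2, and without NICD_mut 1 the fitted value was 0.04.

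**Figure D2:**
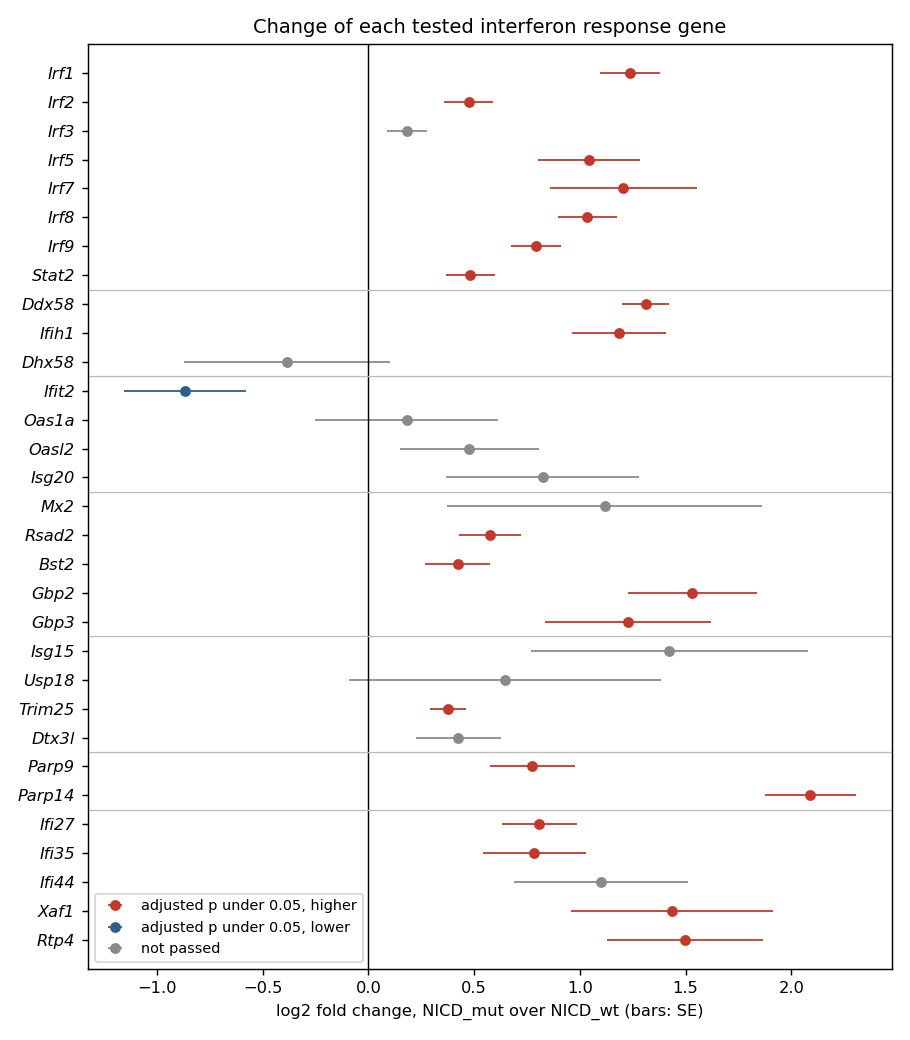
Log2 fold change of NICD_mut over NICD_wt with its standard error for each tested interferon response gene, ordered by role and coloured by the edgeR call. Parp14 has the largest value, 2.09, and Ifit2 is the single call below 0, at -0.87.

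Of the 8 effectors that bind or degrade viral RNA, 4 had enough counts to test: 1 fell and 3 did not pass. Their median log2 fold change was 0.33, and 24.8% of all tested genes were lower. In the 3 that did not pass, Oas1a, Oasl2 and Isg20, both NICD_mut libraries lay above all NICD_wt libraries, as in 32.9% of all tested genes. For Oas1a this held only past the printed digits, as NICD_mut 1 and NICD_wt 2 each had 22 counts. The untested Ifit1, Ifit3 and Oas2 had the same order, at low counts. Ifit2, which binds RNA and limits translation, had 13.2 and 7.74 CPM in NICD_mut, against 21.9, 21.1 and 14.4 CPM in NICD_wt. All NICD_mut values were below all NICD_wt values, as in 34.2% of all tested genes. The log2 fold change of Ifit2 was -0.87 (SE 0.29, edgeR quasi-likelihood test, adjusted p = 0.0493). It did not pass without NICD_mut 2 (-0.55), NICD_wt 1 (-0.76) or NICD_wt 2 (-0.79), nor under 6 other alternatives. Its neighbours on chromosome 19, Ifit3 and Ifit1, were close to silent in both groups. Ifit1 had counts of 6 and 10 in NICD_mut kidneys, against 3, 1 and 2 in NICD_wt, a ratio of summed counts per library size of 3.76 (95% exact interval 1.40 to 11.7). Ifit3 had counts of 6 and 8 in NICD_mut kidneys, against 3, 4 and 3 in NICD_wt, a ratio of 1.97 (0.815 to 4.96). These intervals cover counting error only. The closely related Ifit1bl1 and Ifit3b could share reads with them, so both values are uncertain as single genes.

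The 2′-5′ oligoadenylate synthetases, which make a second messenger when they bind double-stranded RNA, were also low. Oas1a had 1.03 and 1.13 CPM in NICD_mut, against 0.856, 1.03 and 0.978 CPM in NICD_wt (0.18, SE 0.43), a difference within its error. Oasl2 had 2.30 and 2.27 CPM against 1.76, 1.54 and 1.61 CPM (0.48, SE 0.33), and did not pass. Oas2 had counts of 10 and 11 in NICD_mut kidneys, against 9, 4 and 6 in NICD_wt, and Oas3 had 1 and 0 counts against 3, 0 and 0. Isg20, an exonuclease for single-stranded RNA, had 1.97 and 1.33 CPM in NICD_mut, against 1.26, 0.889 and 0.633 CPM in NICD_wt, and did not pass (0.82, SE 0.46); it did pass by limma on log2(TPM + 1) and log2(TPM + 0.1), at 0.72 and 0.95. Summed over the 8 effectors, the level was 19.6 and 13.9 CPM in NICD_mut and 18.2 to 26.7 CPM in NICD_wt. Most of that sum was Ifit2: the other 7 summed to 6.38 and 6.17 CPM in NICD_mut and 3.86 to 4.78 CPM in NICD_wt, a split made after the values were seen. Oas1a has a near copy, Oas1g, so its value is uncertain as a single gene.

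Of 6 membrane and GTPase effectors, 4 rose, 1 did not pass and 1 was not tested, where 23.0% of all tested genes were higher. Gbp2, a guanylate-binding GTPase that targets pathogen membranes, had 5.96 and 3.75 CPM in NICD_mut, against 1.56, 1.68 and 1.78 CPM in NICD_wt. Both NICD_mut libraries were over 2-fold higher, though they differed 1.59-fold from each other (log2 fold change 1.53, SE 0.31). Gbp3, its neighbour on chromosome 3, had 1.88 and 3.30 CPM in NICD_mut, against 1.06, 1.26 and 0.978 CPM in NICD_wt (1.23, SE 0.39). Here NICD_mut 2 was the higher, and Gbp3 did not pass without NICD_mut 2 (0.76) or without NICD_wt 1, 2 or 3 (1.20, 1.34 and 1.15).

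Rsad2 encodes viperin, an enzyme that makes a chain-terminating nucleotide. It had 28.1 and 32.5 CPM in NICD_mut, against 16.9, 23.8 and 20.3 CPM in NICD_wt (0.58, SE 0.15), and did not pass without NICD_wt 3 (0.57; edgeR quasi-likelihood test, adjusted p = 0.0502). Bst2, or tetherin, which holds budding virions at the membrane, had 15.7 and 17.4 CPM in NICD_mut, against 10.6, 14.1 and 12.3 CPM in NICD_wt. Its log2 fold change of 0.42 (SE 0.15) was at the threshold (edgeR quasi-likelihood test, adjusted p = 0.0486), and it did not pass under 10 of 16 alternatives, among them without NICD_mut 2 (0.33), NICD_wt 1 (0.32) or NICD_wt 3 (0.42). The dynamin-like GTPases were low: Mx2 had counts of 19 and 13 in NICD_mut kidneys, against 9, 11 and 1 in NICD_wt, and Mx1 had 4 and 10 counts against 1, 0 and 3. The Mx1 ratio of summed counts per library size was 4.93 (95% exact interval 1.55 to 20.6, counting error only), and Mx2 did not pass (1.12, SE 0.75).

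The ISG15 pathway, which attaches a ubiquitin-like protein to other proteins, was mostly not resolved. Isg15, the modifier, had counts of 39 and 39 in NICD_mut kidneys, against 3, 16 and 21 in NICD_wt. The groups were apart, as in 32.9% of all tested genes, but NICD_wt 1 lay far below the other NICD_wt libraries. Isg15 did not pass (1.42, SE 0.66, edgeR quasi-likelihood test, adjusted p = 0.104). Usp18, which removes Isg15 and blocks the type I receptor, had counts of 20 and 5 in NICD_mut kidneys, against 5, 8 and 9 in NICD_wt. Its fitted log2 fold change of 0.65 (SE 0.74) rested on NICD_mut 1 and was -0.61 without it. Trim25, a ubiquitin ligase that acts on RIG-I, had 75.7 and 79.5 CPM in NICD_mut, against 59.6, 65.7 and 54.0 CPM in NICD_wt (0.38, SE 0.09).

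Parp14, an ADP-ribosyltransferase, had the largest fold change of all members tested. It had 10.7 and 8.98 CPM in NICD_mut, against 2.47, 2.11 and 2.36 CPM in NICD_wt, a 4.26-fold difference (log2 2.09, SE 0.22; edgeR quasi-likelihood test, adjusted p = 8.42e-05). In the deposited TPM it was at 2.64 and 2.14 in NICD_mut, against 0.54, 0.46 and 0.93 in NICD_wt, so NICD_wt 3 was the highest NICD_wt library in TPM but not in CPM. Parp14 lies on chromosome 16 (35831892 to 35871518), beside Dtx3l (35926515 to 35939027) and Parp9 (35938470 to 35972621). Dtx3l, a ubiquitin ligase, and Parp9 form a heterodimer. Parp9 had 9.85 and 12.5 CPM in NICD_mut, against 7.65, 6.36 and 5.52 CPM in NICD_wt (0.78, SE 0.20), and did not pass without NICD_mut 2 (0.59). Dtx3l had 9.76 and 12.3 CPM in NICD_mut, against 9.46, 8.56 and 6.56 CPM in NICD_wt. It did not pass (0.42, SE 0.20; edgeR quasi-likelihood test, adjusted p = 0.111), but did without NICD_mut 1 (0.58). Dtx3l and Parp9 overlap by 558 bases, whose reads may not be told apart, and the changes of the 3 neighbours ran from 0.42 to 2.09.

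Of the remaining 5 induced genes, 4 rose, where 23.0% of all tested genes were higher. Ifi27, a small membrane protein gene, had 13.2 and 12.3 CPM in NICD_mut, against 6.95, 8.61 and 6.21 CPM in NICD_wt (0.81, SE 0.18). Ifi35, which forms a complex with Nmi, had 6.43 and 8.09 CPM in NICD_mut, against 4.93, 3.27 and 4.43 CPM in NICD_wt (0.79, SE 0.25), and did not pass without NICD_mut 2 (0.60), NICD_wt 2 (0.63) or NICD_wt 3 (0.82). Xaf1, which binds the apoptosis inhibitor XIAP, had counts of 30 and 42 in NICD_mut kidneys, against 13, 18 and 7 in NICD_wt (1.44, SE 0.48). Xaf1 did not pass without NICD_mut 2 (1.12), NICD_wt 1 (1.45) or NICD_wt 3 (1.21), nor in any fit to TPM. Ifi44 had counts of 36 and 65 in NICD_mut kidneys, against 19, 29 and 19 in NICD_wt, and did not pass (1.10, SE 0.41), but did without NICD_mut 1 (1.49).

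Rtp4, a chaperone of receptor transport, had 2.58 and 3.50 CPM in NICD_mut, against 0.805, 1.26 and 1.15 CPM in NICD_wt. Its log2 fold change was 1.5 (SE 0.37), and 1.25 without NICD_mut 2, where it did not pass. RefSeq places 1022 bases of it within the span of Masp1, which rose by 2.18 log2, so their reads may overlap. The values of Ifi27, which lies within the span of the related Ifi27l2a, are also uncertain as a single gene.

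Compared per length, the members spanned a wide range of levels. In the deposited TPM, Bst2, Irf3, Trim25 and Ifi27 were highest, with mean levels of 54.6, 37.6, 29.3 and 29.0 TPM in NICD_mut and 37.6, 30.4, 20.6 and 15.5 TPM in NICD_wt. The lowest was Oas3, at 0.01 TPM in NICD_mut and 0.0267 TPM in NICD_wt. Ifit2 ranked 16 of 36 in NICD_mut and 9 in NICD_wt, while Ifit1 ranked 34 in both groups. Irf1 ranked 5 in NICD_mut and 8 in NICD_wt.

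**Figure D3:**
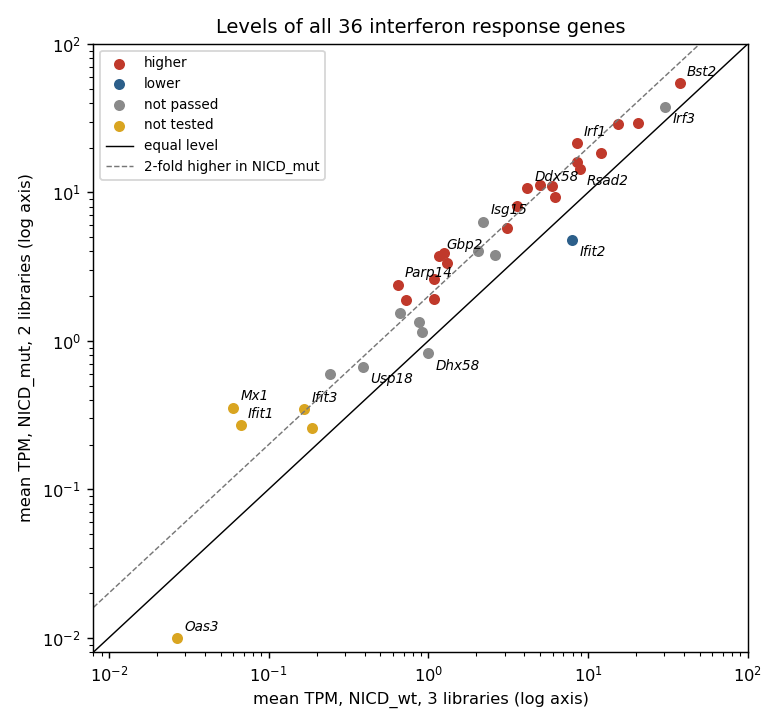
Mean TPM of all 36 interferon response genes in NICD_mut (vertical, 2 libraries) against NICD_wt (horizontal, 3 libraries), both axes log, with the equal-level line and the 2-fold line. The 5 genes with too few counts to test lie at the lower left, and Ifit2, Dhx58 and Oas3 lie below the equal-level line.

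**Figure D4:**
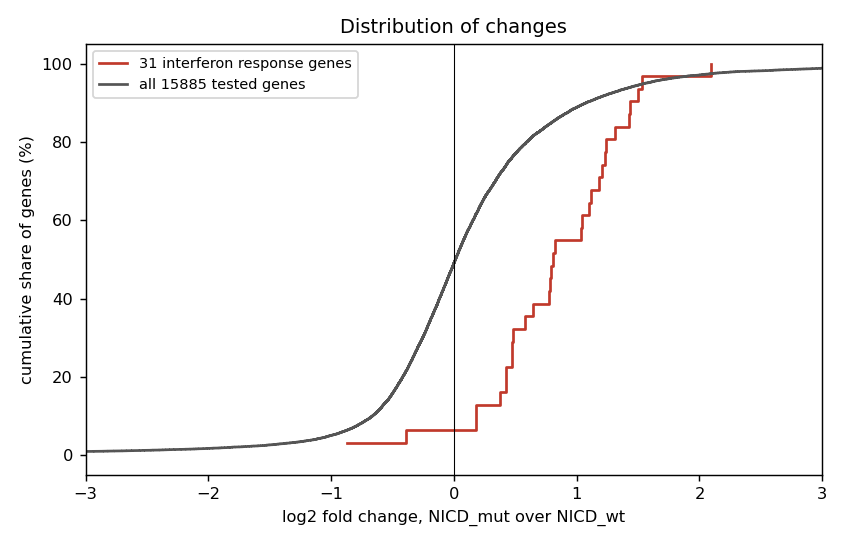
Cumulative share of genes by log2 fold change of NICD_mut over NICD_wt, for the 31 tested interferon response genes and all 15885 tested genes, drawn from -3 to 3. The median of the members is 0.81 and that of all tested genes 0.01.

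The share of genes that rose was set beside the ISRE letters in their promoters, as a description with no test. Of 417 tested genes with a match 25.7% were higher in NICD_mut, against 22.8% of 11341 without one; without the members it was 99 of 407 (24.3%). Among members with a promoter, 8 of the 10 tested with a match rose, as did 8 of the 14 without one. Over all tested genes, 23.0% were higher. Within the printed ISRE stretches, Gbp2, Gbp3 and Rsad2 rose, while Isg15 did not pass and Ifit1 and Ifit3 were too low to test. For the GAS letters, 24.5% of 960 tested genes with a match were higher and 25.7% lower. Of 10798 tested genes without a GAS match, 22.8% were higher.

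Transcripts of the interferons themselves were nearly absent. Of 20 ligand genes 17 had no count in any library. Ifng had 3 counts in NICD_mut 1 and none elsewhere, Ifna13 had 1 count in NICD_mut 2, and Ifnz had 1 count in NICD_wt 3. A count of 0 allows up to 3 counts, or 0.14 to 0.173 CPM by library, for counting error only, so lower levels were not detectable at this depth.

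Of 15 receptor and signalling genes, all tested, 8 rose, 1 fell and 6 did not pass, with a median of 0.28, where 23.0% of all tested genes were higher and 24.8% lower. Il10rb, a chain of the type III receptor, rose by 0.80 (SE 0.13), Tyk2 by 0.50 (SE 0.08) and Ifnar2, a chain of the type I receptor, by 0.46 (SE 0.10). The other chains of these receptors, Ifnlr1 (-0.18, SE 0.29) and Ifnar1 (0.105, SE 0.06), were among the 6 that did not pass. Of 20 genes of nucleic acid sensing, 19 were tested: 6 rose, 5 fell and 8 did not pass, with a median of -0.07, shares near those of all tested genes. The number that fell was 3 without NICD_mut 1 or NICD_wt 3, and 2 by limma on log2(TPM + 1) or log2(TPM + 0.1). Ikbke, a kinase of Irf3, rose by 1.43 (SE 0.20). Rnaseh2a and Rnaseh2c, subunits of the enzyme that clears RNA in DNA hybrids, changed by -0.81 (SE 0.11) and -0.75 (SE 0.09).

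Of 48 other interferon-induced genes, 41 were tested, 22 rose, 0 fell and 19 did not pass. The median was 0.70, and 23.0% of all tested genes were higher. Among the 22, Tgtp1 (0 to 0.151 CPM in NICD_wt) and Cxcl10, described below, were under the filter line of 0.491 CPM in every NICD_wt library. These genes entered the test through NICD_mut alone and cannot stand as support in that count. Samd9l, a restriction factor that halts translation, had 61.7 and 58.3 CPM in NICD_mut, against 13.8, 12.8 and 12.8 CPM in NICD_wt (2.19, SE 0.09). Oasl1 rose by 2.11 (SE 0.26), Gbp9 by 1.78 (SE 0.21) and Gbp7 by 1.71 (SE 0.23). Gbp7 and Gbp9 are guanylate-binding proteins like Gbp2 and Gbp3, and Oasl1 is a relative of the Oas enzymes that represses translation of Irf7.

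The chemokine Cxcl10, singled out after its values were seen, had counts of 1149 and 414 in NICD_mut kidneys, against 2, 3 and 3 in NICD_wt. The ratio of summed counts per library size was 275 (95% exact interval 139 to 639, counting error only). The NICD_mut libraries differed from each other, at 53.9 CPM in NICD_mut 1 and 20.4 CPM in NICD_mut 2. The NICD_wt levels of Cxcl10, 0.101 to 0.173 CPM, were under the filter line of 0.491 CPM, so it entered the test through NICD_mut alone. The fitted log2 fold change of 8.02 is a ratio to this near-absent level. That value lay above those of all tested members, while the lowest members had no fitted value. Because Cxcl10 was picked after its values were seen, this order carries no weight.

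**Figure D5:**
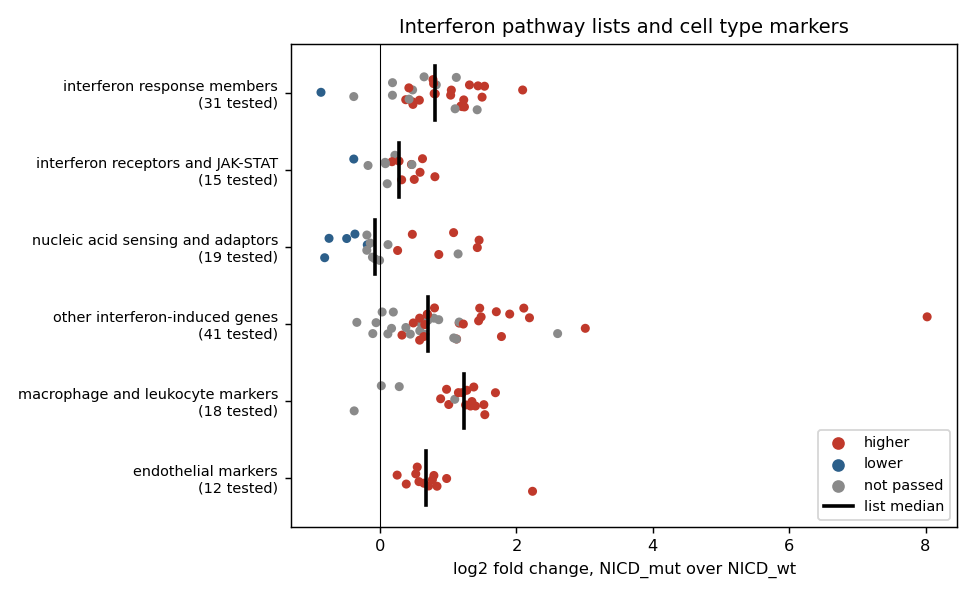
Log2 fold change of NICD_mut over NICD_wt for each tested gene of 6 lists, with the list median as a bar and colours for the edgeR call; vertical scatter within a list has no meaning. Medians are 0.81 for the interferon response genes and 1.23 for macrophage and leukocyte markers, and the point at 8.02 is Cxcl10.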

How the data were processed

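Whole-kidney RNA was sequenced in bulk, 1 column per library. The authors deposited estimated counts per gene symbol, already whole numbers, and TPM, normalised for length and depth by the authors. Per the submitters' processing notes, RSEM, Bowtie2 and mm10 were used; their versions, the annotation and whether strand was used were not given in the sources used here. Of 32793 genes, 12089 had no count.

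Low genes were removed by filterByExpr on the 2 groups (minimum count 10, total 15), TMM-scaled, and tested with the edgeR 4.0.16 quasi-likelihood test (robust, no covariate) in R 4.3.3, Benjamini-Hochberg adjusted over all 15885 genes, threshold 0.05. Log2 fold changes are NICD_mut over NICD_wt; standard errors (SE) come from the F statistic. All members are named; of the other interferon lists up to 4 genes, and of cell type lists up to 2, with the smallest adjusted p and a mean log2 CPM of at least 1, plus Csf1r, Ptprc, Pecam1, Cdh5, Notch1 and Six2; genes withheld from this text are not reported here, and others are said to be singled out or support a stated count or overlap. Members and lists were chosen with earlier results of these data known. The other lists, for progenitors, tubule, stroma and muscle, served as checks of the samples.

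Alternatives used DESeq2 1.42.0 and limma 3.58.1, other scalings and filters, limma on log2(TPM + 1) or log2(TPM + 0.1), a replicate block, and fits without each library in turn. Tests were tried on simulated counts. Figures used matplotlib 3.10.9 in Python 3.11.15. RefSeq promoters were matched by symbol; of 34 member promoters, the last 25 bases of 31 were found in a GENCODE transcript of the gene.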

Additional observations from a re-analysis of the deposited data

How the results depend on the processing

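The count of members that rose was 20, and 18 to 21 under other scalings, filters and tests; without 1 library each it was 14 (without NICD_mut 2) to 21. Their median was 0.74 to 0.92 without 1 library each, and 0.57 by limma on log2(TPM + 1) with no filter. Of the 16 alternatives, 9 left 0 members lower, Ifit2 being the 1 otherwise: DESeq2 size factors, no filter, 50 counts in 2 samples, the 3 fits to log2 TPM, and those without NICD_mut 2, NICD_wt 1 or NICD_wt 2 (lowest 0, highest 1). The cause was not tested. Fits without NICD_mut 1 or NICD_mut 2 assume that the lone NICD_mut library varies like the others. Without NICD_mut 1, the fits of Dhx58 and Usp18 changed sign, as did the muscle genes Tnnt3 and Tnni2; without 1 library each, Dhx58 ran from -0.988 to 0.036, Usp18 from -0.607 to 1.288, Tnnt3 from -0.529 to 6.09 and Tnni2 from -0.765 to 5.981. Without NICD_mut 1 and NICD_wt 1, the libraries with most muscle transcripts, 21 members rose and 1 fell, and Dhx58 and Usp18 were at 0.21 and -0.83. All other tested members kept their direction in every fit that tested them.

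Genes passing numbered 7583, and 5898 to 8050 without 1 library each. Of genes called, 48.1% were higher, 47.4 to 48.9% under other scalings, and 60.6% by limma on log2(TPM + 1), where the median of all genes shifted to 0.11; the member median there was 0.72, or 0.61 above that of all genes. With a replicate block 5535 genes passed, and 15 members rose and 1 fell at a median of 0.73; Isg15 passed (2.22) and Irf2, Bst2, Gbp3, Parp9, Ifi35 and Xaf1 did not. The samples share only a number: deviations of same-numbered libraries correlated at 0.34 for number 1 and 0.14 for number 2, and those of NICD_mut 2 and NICD_wt 3 at 0.24; with 2 NICD_mut libraries these deviations mirror each other. Low counts limited the 5 untested members.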
